A study of Oryza sativa with 12 samples.

Results

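Rice carries large families of membrane proteins that move potassium and sodium ions, and 33 genes were named as members of 3 of them by a symbol or synonym of the form HAK, HKT or AKT followed by digits. Of these, 24 had a probe set on the rice array, out of 17905 genes with one. They comprised 22 of 25 HAK genes, 1 of 7 HKT genes (HKT8) and the single AKT gene, AKT1. The members were represented by 31 probe sets, and 7 members had 2 probe sets each. The suffix of 8 probe sets (x_at) and that of HAK23 (s_at) mark possible hybridisation with other transcripts. The 8 belong to HAK1, HAK3, HAK7, HAK10, HAK15, HAK17, HAK22 and AKT1. HAK6, HAK19, HAK24 and 6 HKT genes had no probe set in the table and were not analysed here.

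The arrays were hybridised with leaf RNA from 2 upland rice (Oryza sativa) cultivars grown in a flooded field, Azucena, a tropical japonica type, and Bala, an indica type. There were 4 groups of 3 arrays: Azucena drought, Azucena control, Bala drought and Bala control. Water was withheld from the drought plots from day 59 after sowing while control plots stayed flooded, and all leaves were collected at day 83, so that drought had lasted 24 days. Each sample was a pool of leaf middles from several plants of 1 field block. The pools came from more plots per block in drought than in control, and the labels do not link replicate numbers to blocks. The sampled organ was the leaf alone, so that nothing below describes roots.

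HAK proteins are potassium transporters, some of which take up potassium at low outside concentrations and some of which act at internal membranes. HKT proteins carry sodium, or sodium and potassium, and those of the HKT8 kind withdraw sodium from the xylem before it reaches the leaf blade. AKT1 is an inward potassium channel, best known from root cells, where the kinase CIPK23 together with a CBL calcium sensor activates it. Potassium is the main osmotic solute of plant cells and sets the turgor of guard cells, and the balance of potassium to sodium in leaves is a known component of tolerance to water deficit and salt.

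Signals are linear array signals, given for each array or as mean ± SD (n = 3 per group). A change is a difference of log2(signal + 16), which understates the change of dim probe sets, with its standard error (SE). A fold is that change on the linear scale, so it too refers to signal + 16 and can be smaller than the ratio of the signals printed. A fold given as "at least" is taken from signals without the 16, and the 2 kinds are not compared. Adjusted p-values come from limma, fitted over all 33476 probe sets tested, and "called" means an adjusted p under 0.05. The replicates are labelled biological, and the number of arrays limits the precision. For a member with 2 probe sets the one with the higher mean log2 value stands for the gene. Array medians lay between 9.6 and 12.4, and the highest of 33 negative control probe sets, used as background, between 13.4 and 28.3. Replicate arrays correlated at 0.954 to 0.969 (Spearman, across probe sets tested). Signals of different probe sets are not compared in level, since each probe set has its own brightness.

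Leaf identity was checked with marker genes. Of 3 mesophyll genes with a probe set, a small subunit gene of Rubisco and CAB2R, a chlorophyll-binding protein gene, were bright on all arrays, and RBCS1 was under background on all. Their summed signal was 12080 to 12910 in Azucena drought and 16640 to 19180 in Azucena control, and 10590 to 12070 in Bala drought and 14640 to 17140 in Bala control. Of 13 genes of vascular and secondary wall tissue 9 exceeded background on at least 1 array, and their summed signal was 499.4 to 972.4 in Azucena drought and 293.1 to 479.5 in Azucena control. It was 703.4 to 1037 in Bala drought and 472.3 to 518.6 in Bala control. Of the root genes LSI1 and LSI2, LSI2 was under background on all arrays, and the sum was 300.5 to 311.5 in Azucena drought, 148.3 to 206.3 in Azucena control, 97.4 to 194.4 in Bala drought and 87.8 to 157.7 in Bala control. By the fit, the 2 bright mesophyll genes fell in both cultivars, and of the 9 vascular genes 2 rose in Azucena, while 6 rose and 2 fell in Bala. The 2 in Azucena were LAC10 and LAC24. LAC24 gave 20.2, 471.7 and 28.3 in Azucena drought, against 10.1, 3.8 and 14.5 in Azucena control, so that 1 array dominated its mean. That array, Azucena drought 2, gave the highest vascular sum of its group, 972.4, but this sum includes the 471.7 of LAC24 itself. The root gene LSI1, over background on all 12 arrays, rose in Azucena (0.77, adjusted p = 0.019), had a change of 0.32 in Bala (adjusted p = 0.33), and was lower in Bala than in Azucena under drought (-0.91, adjusted p = 0.0079). No name of the guard cell list matched a gene symbol or synonym, so that guard cells had no marker here. The part of these shifts in the changes below was not tested, and in whole leaf RNA fewer cells of a type and less RNA per cell cannot be told apart.

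Of the 24 members 21 passed the filter on low values. The 3 that did not, HAK4, HAK20 and HAK26, had signals between 0.2 and 9.5 on the 12 arrays, under background throughout. In Azucena 10 of the 21 members were called, 3 higher and 7 lower in drought, or 14.3% and 33.3%, against 18.2% higher and 17.4% lower of 15608 genes tested. In Bala 9 were called, 2 higher and 7 lower, or 9.52% and 33.3%, against 27.4% higher and 14.1% lower of all genes. The share of members called in either direction, 47.6% in Azucena and 42.9% in Bala, stood beside 35.6% and 41.4% of all genes. The median change was -0.12 over the members and 0.03 over all genes in Azucena, and -0.20 and 0.18 in Bala. The falls comprised HAK1, HAK13, HAK17, HAK7, HAK22 and HKT8 in both cultivars, HAK27 in Azucena and AKT1 in Bala. Thus 6 members (28.6%) fell in both, against 8.55% of all genes, and 1 member, HAK10, rose in both (4.76%, against 11.6% of all genes). Without Azucena control 2, and likewise without Azucena drought 2, HAK22, HAK7 and HKT8 were not called in Azucena, so that 4 members were lower there and 3 in both cultivars. Without Azucena control 1 or Azucena drought 1, and with no filter on low values, 4 were lower in both. HAK1, HAK13 and HAK17 were lower and HAK10 higher in both cultivars under all 24 alternatives run. Members higher in both numbered 3 under spike-in centring (HAK12 and HAK23 besides HAK10) and 2 with the mean over probe sets or without Bala control 2 (HAK14 besides HAK10) and without Bala control 3 or Bala drought 3 (HAK12 besides HAK10). Without Bala drought 3 the higher members in Azucena numbered 5, and without Bala control 1 or Bala drought 1 those in Bala numbered 1. The share of all genes called the same way in both cultivars was computed only with the deposited scaling, all 12 arrays and the filter. The counts in both cultivars under alternatives therefore have no such share beside them. For each response alone, shares of all genes under alternatives are given for the scalings only. The balance of directions in Bala depended on the scaling. It was 2 members higher and 11 lower under quantile normalization, 1 and 11 under median centring, and 4 and 6 under spike-in centring. Of all genes 22.7% were higher and 21.3% lower under quantile normalization, 20.7% and 22.2% under median centring, and 32.9% and 13.4% under spike-in centring. Of the calls over all genes 51.6%, 48.2% and 71% were higher, against 66% with the deposited scaling. In Azucena spike-in centring gave 5 higher and 7 lower, with 61.2% of all calls higher, against 51% as deposited. Of all genes 24.1% were higher and 15.3% lower under it. With the mean over a gene's probe sets 6 members were higher and 6 lower in Azucena. HAK5 was gained there as lower (-0.89, adjusted p = 0.002), and the calls of HAK7 and HAK22 were lost. The higher members gained there, HAK11, HAK12 and HAK14, have 1 probe set each and kept their log2 changes. Only their adjusted p moved, since that fit had 1 row per gene. The same holds below for HAK27, and for HAK3, which had 1 tested probe set. Drought and control arrays did not overlap for 12 members in Azucena (57.1%, against 51.4% of all genes) and 11 in Bala (52.4%, against 51.7%).

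**Figure D1:**
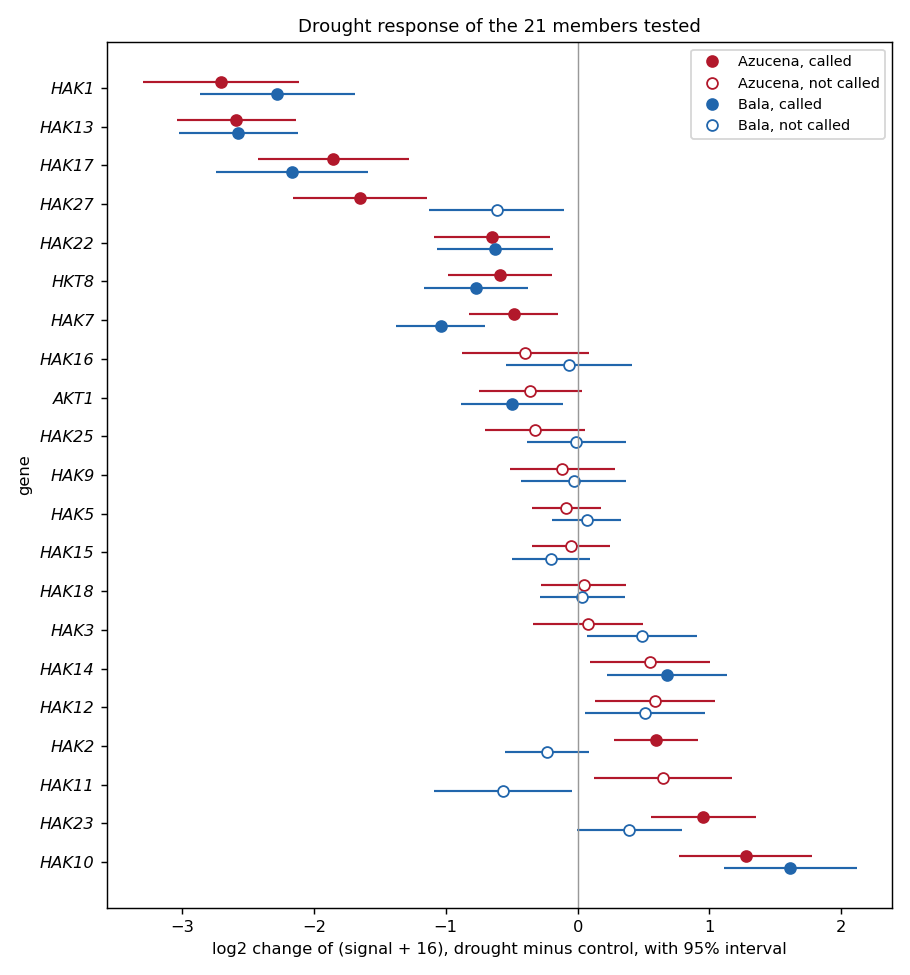
Drought minus control change of log2(signal + 16) for the 21 members tested, in Azucena (red) and Bala (blue), with 95% intervals; filled points were called. HAK1, HAK13 and HAK17 lie near or below -2 in both cultivars, HAK10 is highest in both, and HAK2 and HAK11 lie on opposite sides of 0.

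HAK1 (LOC4335729), a high-affinity potassium uptake transporter known from rice roots and induced there by low potassium, fell in both cultivars. The probe set that stands for HAK1 has the suffix x_at. Its signal was 39.3, 74.4 and 59.1 on the Azucena drought arrays, against 430.3, 369.4 and 591.8 on the Azucena control arrays. The Bala arrays read 74.7, 62.5 and 54.7 in drought, against 341.1, 629 and 232.8 in control. Every control array lay far above every drought array, whichever the cultivar. HAK1 fell 6.53-fold in Azucena (log2 change -2.71, SE 0.28, adjusted p = 1.5e-06) and 4.85-fold in Bala (-2.28, SE 0.28, adjusted p = 8.3e-06). The responses differed by 0.43 (95% interval -0.41 to 1.27), which was not called.

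HAK13 (LOC4341805), another HAK transporter, was present in flooded plots and at background in drought. Its signal was 3, 14.2 and 1.8 in Azucena drought, against 96.8, 111.8 and 139 in Azucena control. It was 2.8, 2.3 and 5.3 in Bala drought, against 83.1, 120.5 and 98.3 in Bala control. No drought array exceeded its background and every control array did. Set against the background level, HAK13 was at least 5.3-fold lower in Azucena drought (adjusted p = 1.1e-07) and at least 4.57-fold lower in Bala drought (adjusted p = 9.5e-08).

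HAK17 (LOC4347211) combined a fall in drought with a lower level in Bala. Its signal was 263.4, 352 and 343 in Azucena drought, against 794.2, 1444.5 and 1458.5 in Azucena control. It was 64.5, 77.1 and 137.3 in Bala drought, against 376.4, 655.8 and 378.2 in Bala control. Within each cultivar the arrays did not overlap, and the Bala control arrays lay between the Azucena drought and the Azucena control arrays. HAK17 fell 3.62-fold in Azucena (log2 change -1.85, SE 0.27, adjusted p = 6.3e-05) and 4.49-fold in Bala (-2.17, SE 0.27, adjusted p = 1e-05). It was also lower in Bala than in Azucena, by 1.67 on the log2 scale under drought (difference -1.67, SE 0.27, adjusted p = 0.00018) and by 1.36 in flooded plots (difference -1.36, SE 0.27, adjusted p = 0.001).

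HAK27 (LOC4333296) lies next to HAK16 on the chromosome, with no annotated gene between them. The signal of HAK27 was 124.4, 195.5 and 116.9 in Azucena drought, against 566.6, 459 and 425.6 in Azucena control. In Bala it was 153.4, 116.8 and 139.8 in drought, against 195.6, 338.9 and 150.6 in control, and the groups overlapped. HAK27 fell 3.14-fold in Azucena (log2 change -1.65, SE 0.24, adjusted p = 6.4e-05), and the change in Bala was -0.61 (adjusted p = 0.065). The Bala change was called under quantile normalization (-0.77, adjusted p = 0.02), median centring (-0.79, adjusted p = 0.015) and the mean over probe sets (adjusted p = 0.049), and without Bala control 3 (-0.85, adjusted p = 0.014). The difference between the responses was 1.04 (95% interval 0.32 to 1.76, adjusted p = 0.061). That difference was called with the replicate number as a block (adjusted p = 0.049), with 64 in place of 16 added to the signal (adjusted p = 0.047), with the mean over probe sets (adjusted p = 0.045), and without Bala control 2 (1.35, adjusted p = 0.0068) or Azucena drought 2 (1.25, adjusted p = 0.03).

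HAK16 (LOC4333298), a potassium transporter of rice linked to salt tolerance, differed between cultivars and not detectably with drought. Its signal was 244.2, 154 and 233.3 in Bala drought, against 308.9, 494.4 and 484.4 in Azucena drought. In flooded plots it was 201.3, 201.9 and 251.5 in Bala, against 406, 717.9 and 593.9 in Azucena. All Bala arrays lay below all Azucena arrays. HAK16 was 1.96-fold lower in Bala under drought (log2 difference -0.97, SE 0.23, adjusted p = 0.0043) and 2.46-fold lower in flooded plots (-1.30, SE 0.23, adjusted p = 0.00029). Its drought change was -0.40 in Azucena (95% interval -0.87 to 0.08) and -0.07 in Bala (-0.55 to 0.41).

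**Figure D2:**
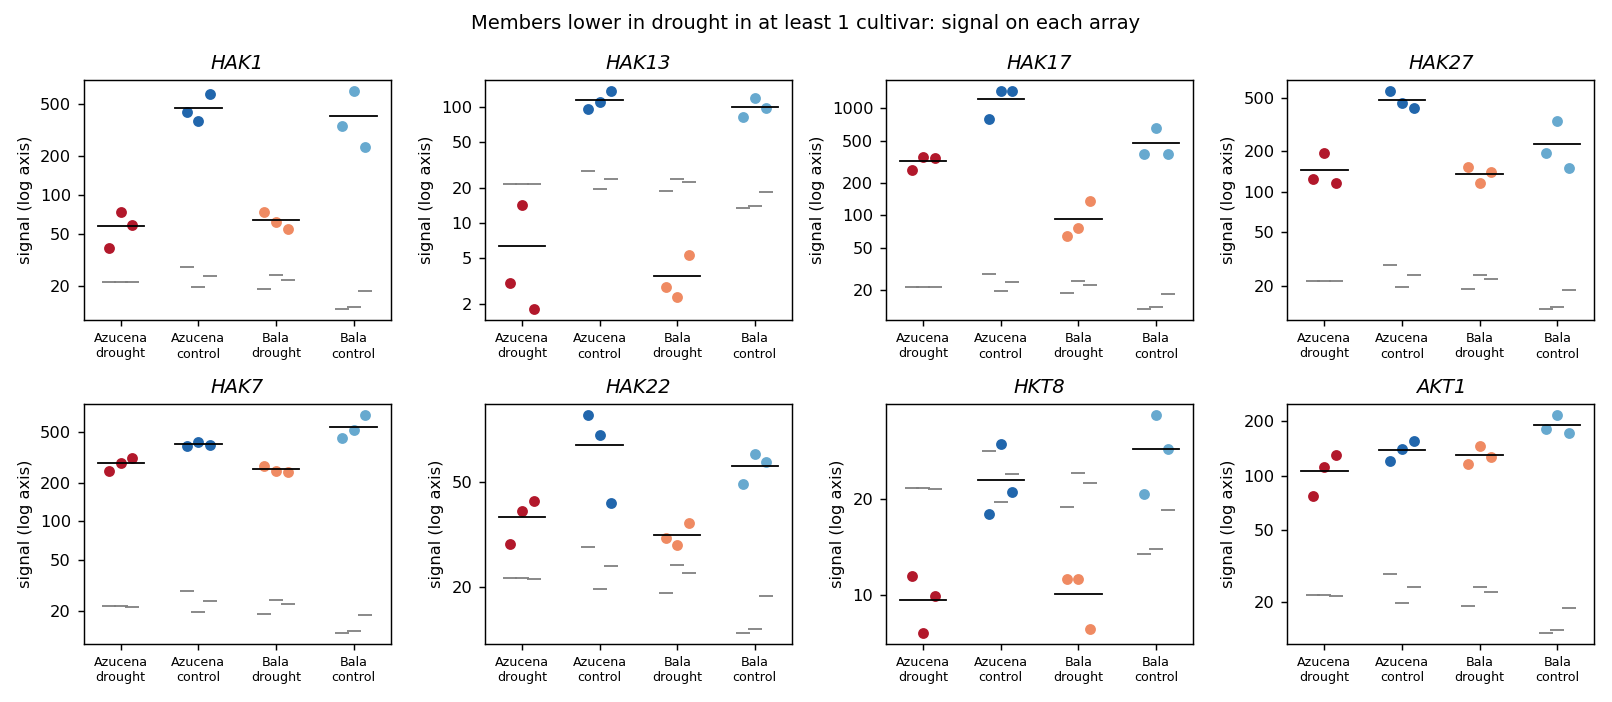
Signal on each of the 12 arrays (points, log axis) for the 8 members called lower in drought in at least 1 cultivar; black lines are group means and grey dashes each array's background. Both drought groups of HAK13 lie under background, and HAK17 is lower in Bala than in Azucena in both conditions.

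HAK7 (LOC4344235), a further potassium transporter of the family, fell in both cultivars. Its signal was 246.9, 288.1 and 315 in Azucena drought, against 387.7, 417.5 and 398.3 in Azucena control. Bala leaves gave 271.5, 247.3 and 244.2 in drought, against 447.4, 512.7 and 680.2 in control. The groups did not overlap in either cultivar. HAK7 fell 1.40-fold in Azucena (log2 change -0.48, SE 0.16, adjusted p = 0.032) and 2.05-fold in Bala (-1.04, SE 0.16, adjusted p = 8.7e-05). The Azucena call was lost without any of the Azucena control arrays, Azucena drought 1 or Azucena drought 2 (adjusted p = 0.057 to 0.13), and with the dimmer probe set (adjusted p = 0.35) or the mean over probe sets (0.09).

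HAK22 (LOC4342173), represented by a probe set with the suffix x_at, showed a smaller fall. Its signal was 29, 38.7 and 42.4 in Azucena drought, against 89.5, 75.3 and 41.7 in Azucena control, with 1 control array inside the drought range. In Bala it was 30.6, 28.7 and 34.8 in drought, against 48.8, 63.8 and 59.2 in control, without overlap. The change was -0.65 in Azucena (SE 0.21, adjusted p = 0.028) and -0.63 in Bala (SE 0.21, adjusted p = 0.03). The call was lost in Azucena without control 1 or 2 or drought 1 or 2 (adjusted p = 0.054 to 0.13) and in Bala without control 2 or 3 or drought 1 or 2 (0.07 to 0.095). Over all alternatives the adjusted p reached 0.84 in Azucena and 0.44 in Bala, both with the dimmer probe set, which was at background in all groups.

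HKT8 (LOC4327757), also named SKC1, encodes the sodium transporter that removes sodium from the xylem sap. Its signal was 11.5, 7.6 and 9.9 in Azucena drought, against 18, 29.7 and 21 in Azucena control. On the Bala arrays it was 11.2, 11.2 and 7.8 in drought, against 20.8, 36.8 and 28.7 in control. Drought arrays lay below control arrays in both cultivars, but all drought arrays were under background, as was the mean of Azucena control. No fold is therefore given for Azucena, where the fall was called (adjusted p = 0.025), and in Bala HKT8 was at least 1.29-fold lower in drought (adjusted p = 0.0043). The Azucena call was lost without Azucena control 2, drought 2 or drought 3 (adjusted p = 0.056 to 0.11) and with no filter on low values (0.063). The summed signal of the vascular genes was higher on drought than on control arrays in both cultivars. In Azucena the margin was narrow, with a lowest drought sum of 499.4 and a highest control sum of 479.5. Bright probe sets weigh most in such a sum. SUT1 gave 280.8, 342.6 and 300.9 of the Azucena drought sums and 198.8, 261.1 and 262.9 of the control sums. Its change was not called in Azucena (0.34, adjusted p = 0.2) and was called higher in Bala (1.38, adjusted p = 2.1e-05). Of the 9 vascular genes tested 2 were called higher in Azucena, and 6 higher and 2 lower in Bala. The part of these shifts in the HKT8 result was not tested.

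AKT1 (LOC4326245), the potassium channel gene, was measured by a probe set whose suffix marks possible hybridisation with related transcripts. Its signal was 76.6, 111.4 and 130.5 in Azucena drought, against 120.1, 139.5 and 156 in Azucena control, with overlap. In Bala it was 116.4, 146.7 and 126.3 in drought, against 181, 217.2 and 172.2 in control, without overlap. AKT1 fell 1.41-fold in Bala (log2 change -0.50, SE 0.18, adjusted p = 0.048), and the change in Azucena was -0.36 (95% interval -0.75 to 0.03). The Bala call was lost in 14 of 24 alternatives, with adjusted p between 0.052 and 0.16, among them the removal of any 1 Bala array or of Azucena control 2 or 3 or Azucena drought 2. The responses of AKT1 differed by -0.14 (95% interval -0.69 to 0.41).

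HAK10 (LOC4341573), a transporter placed at the vacuolar membrane in earlier work on rice, was the only member called higher in both cultivars. Its signal was 166.8, 194.8 and 205.3 in Azucena drought, against 35.7, 105.4 and 79.7 in Azucena control. For Bala the signal was 157.9, 197.5 and 161.5 in drought, against 40.8, 42.8 and 52.9 in control. Drought arrays of both cultivars lay above all control arrays. HAK10 rose 2.42-fold in Azucena (log2 change 1.28, SE 0.24, adjusted p = 0.00064) and 3.06-fold in Bala (1.61, SE 0.24, adjusted p = 5.9e-05).

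HAK23 (LOC4346918) and HAK2 (LOC4326793) rose in Azucena. The signal of HAK23 was 371.4, 533.6 and 408.4 in Azucena drought, against 242.2, 239.2 and 172.5 in Azucena control, a 1.94-fold rise (log2 change 0.95, SE 0.19, adjusted p = 0.00097). In Bala it was 411.5, 473.1 and 389.3 in drought, against 246.9, 361.9 and 360.1 in control, a change of 0.39 (adjusted p = 0.13). The arrays of HAK23 did not overlap in either cultivar, and the responses differed by -0.56 (adjusted p = 0.2). The call of the rise in Bala depended on the scaling, with adjusted p = 0.033 under spike-in centring.

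For HAK2 the signal was 369.5, 344.8 and 411.9 in Azucena drought, against 212.1, 257.3 and 259.8 in Azucena control. Bala arrays gave 381.8, 406.2 and 367 in drought, against 398.1, 433.9 and 539.7 in control. Azucena control thus stood below the other 3 groups, which overlapped. HAK2 rose 1.51-fold in Azucena (log2 change 0.60, SE 0.15, adjusted p = 0.0067), against a change of -0.23 in Bala (adjusted p = 0.28). The Bala change was called lower under quantile normalization (-0.41, adjusted p = 0.026) and median centring (-0.41, adjusted p = 0.029).

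HAK14 (LOC4343344) was dim. Its signal was 14, 26.4 and 18.1 in Azucena drought, against 7, 8.4 and 8.8 in Azucena control, and both groups averaged under background. In Bala it was 24.5, 19.3 and 27 in drought, against 7.3, 18.3 and 2.8 in control. The arrays did not overlap in either cultivar. Of the Bala arrays 2 of 3 in drought and 1 of 3 in control were over background. HAK14 was at least 1.41-fold higher in Bala drought (adjusted p = 0.023), and the Azucena change was 0.55 (adjusted p = 0.071). The Bala call was lost without Bala control 1 or 3 or Bala drought 1 or 3 (adjusted p = 0.065 to 0.12), under median centring (0.081) and with no filter on low values (0.058). The Azucena change was called without Bala control 2 (0.039) and with the mean over probe sets (0.049).

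HAK12, known in rice as a transporter that limits sodium in the shoot, had a signal of 59.9 ± 1.76 in Azucena drought and 34.9 ± 7.08 in Azucena control, a change of 0.59 (adjusted p = 0.052). In Bala it averaged 47.3 ± 15.8 in drought and 28.4 ± 10.4 in control, a change of 0.51 (adjusted p = 0.084). Neither change was called. That in Azucena was called under spike-in centring (adjusted p = 0.022), with 64 added to the signal (0.04), with the stricter filter (0.045), with only the Azucena groups (0.03) and with the mean over probe sets (0.036), and without Bala control 1 or 3 or Bala drought 2 or 3 (0.034 to 0.047). That in Bala was called under spike-in centring (0.044) and without Bala control 3 (0.046) or Bala drought 3 (0.027).

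The other members were not called in either drought response. HAK18 averaged 627 ± 97.5 in Azucena drought and 604 ± 57.2 in Azucena control, and 480 ± 27.7 in Bala drought and 470 ± 65.5 in Bala control. HAK18 had changes of 0.05 (95% interval -0.28 to 0.37) and 0.03 (-0.29 to 0.36), so that a 2-fold change lay outside both intervals. The intervals of HAK9, HAK15, HAK25 and HAK3 likewise excluded a log2 change of 1 in both cultivars. HAK3 changed by 0.08 in Azucena and 0.49 in Bala (adjusted p = 0.073), which was called without Bala drought 3 (0.66, adjusted p = 0.022) and with the mean over probe sets (adjusted p = 0.048). HAK15 was called lower in Bala drought under quantile normalization (-0.36, adjusted p = 0.024) and median centring (-0.38, adjusted p = 0.017).

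**Figure D3:**
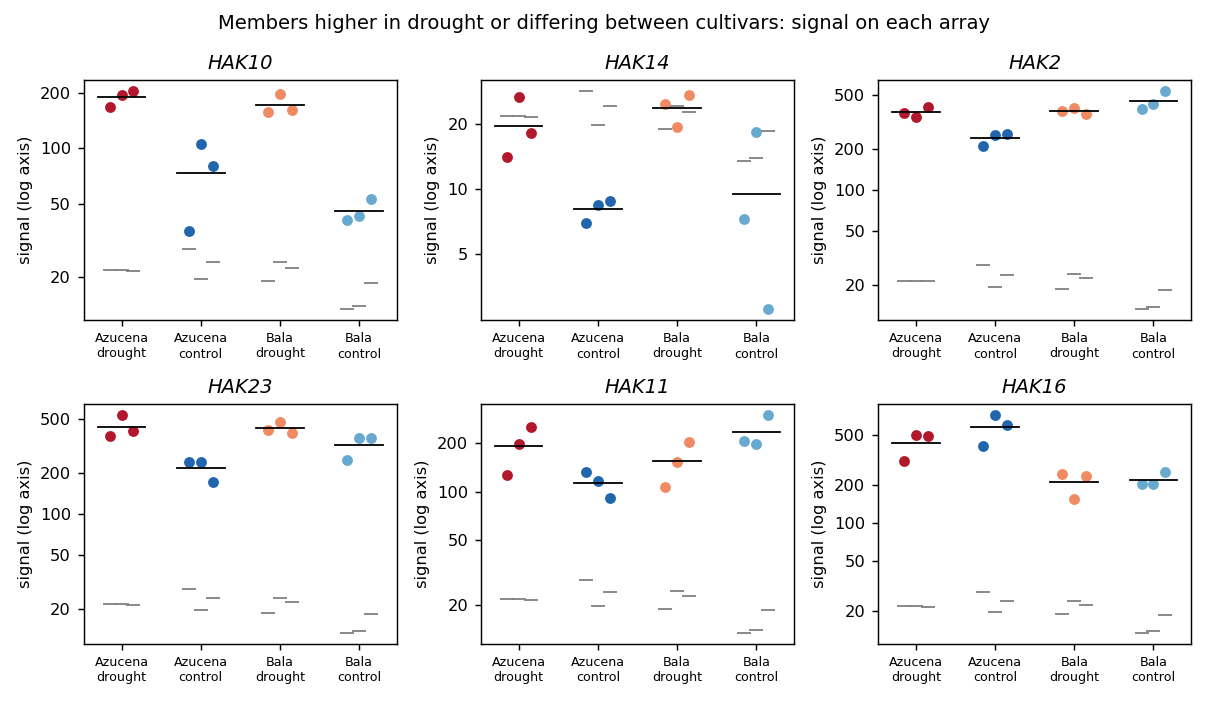
Signal on each of the 12 arrays (points, log axis) for HAK10, HAK14, HAK2, HAK23, HAK11 and HAK16; black lines are group means and grey dashes each array's background. HAK10 is higher in both drought groups, HAK2 and HAK23 are lowest in Azucena control, and HAK16 is lower in both Bala groups.

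HAK5 (LOC4326945), the second high-affinity potassium uptake transporter of rice roots, had 2 probe sets that behaved differently. The brighter gave 2550 ± 248 in Azucena drought, 2710 ± 234 in Azucena control, 2770 ± 70.8 in Bala drought and 2660 ± 340 in Bala control. Its changes were -0.08 in Azucena (95% interval -0.35 to 0.18) and 0.07 in Bala (-0.19 to 0.33). The dimmer gave 12.3, 16 and 9.7 in Azucena drought, against 113.3, 41.7 and 88.2 in Azucena control. It gave 18.8, 19.7 and 53 in Bala drought, against 107.2, 282.4 and 126.9 in Bala control. No drought array overlapped a control array of its cultivar on this probe set. By it HAK5 was at least 3.45-fold lower in Azucena drought (adjusted p = 0.0012) and was called lower in Bala drought (log2 change -1.98, SE 0.34, adjusted p = 0.00024). In Bala drought 1 of 3 arrays was over background, so that no fold is given there. With the mean over its 2 probe sets HAK5 was called lower in Azucena (-0.89, adjusted p = 0.002) and in Bala (-0.955, adjusted p = 0.00091). The 95% intervals of the 2 probe sets do not overlap in either cultivar, and these files do not show which of them measures the HAK5 transcript.

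In the other members with 2 tested probe sets both had changes of the same sign. The dimmer set of HAK1 changed by -1.94 in Azucena (adjusted p = 0.0002) and -1.21 in Bala (adjusted p = 0.0076), that of HAK17 by -1.65 (3.3e-05) and -1.49 (8.1e-05), and that of HAK10 by 0.72 (0.012) and 1.08 (0.00052). For HAK7 the dimmer set was called in Bala (-0.67, adjusted p = 0.0095) and stood at -0.25 in Azucena (adjusted p = 0.35). For HAK3 the dimmer probe set did not pass the filter.

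**Figure D4:**
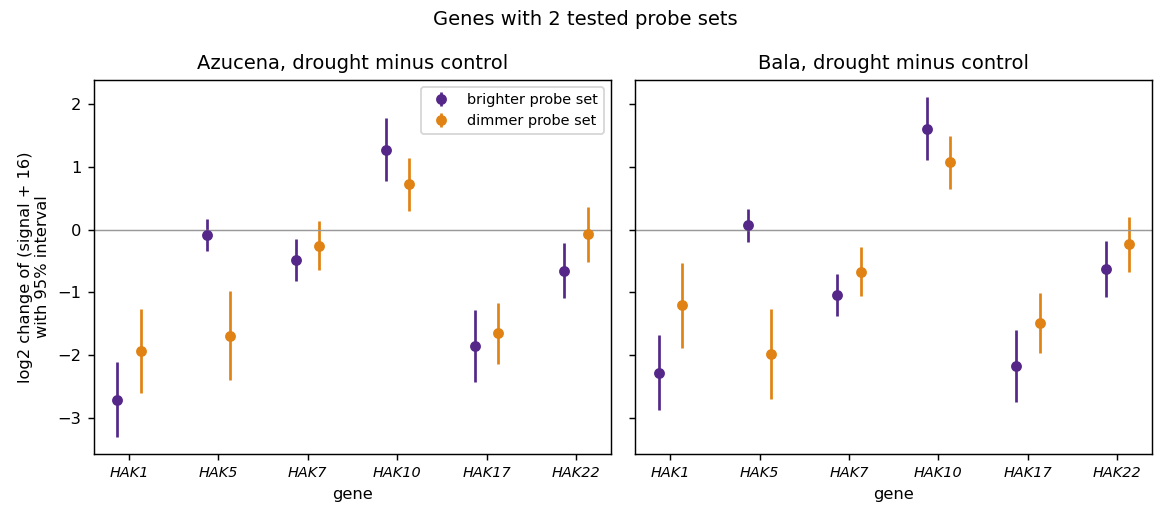
Drought minus control change of log2(signal + 16) with 95% intervals for the 6 genes with 2 tested probe sets, Azucena on the left and Bala on the right. The intervals of the brighter (purple) and dimmer (orange) probe sets are apart for HAK5, with the brighter near 0 and the dimmer below -1.

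The interaction asked which members responded differently to drought in Bala and Azucena. HAK11 (LOC4336979) and HAK2 were called, both with a lower response in Bala, or 9.52% of the 21 members, against 14.9% of all genes (9.82% higher and 5.13% lower). The signal of HAK11 was 107.2, 152.8 and 203.8 in Bala drought, against 206.4, 196.5 and 298.4 in Bala control, a change of -0.57 (adjusted p = 0.094). It was 127, 196.7 and 252 in Azucena drought, against 132.9, 116.3 and 91.3 in Azucena control, a change of 0.65 (adjusted p = 0.061). The Bala response was lower by 1.22 on the log2 scale (difference -1.22, SE 0.35, adjusted p = 0.032), and that of HAK2 by 0.83 (difference -0.83, SE 0.21, adjusted p = 0.018). The call of HAK11 was lost without Azucena control 2 or 3, Bala control 1 or 3, Azucena drought 2 or 3, or Bala drought 1 or 2 (adjusted p = 0.051 to 0.088) and with no filter on low values (0.081), and that of HAK2 without Azucena drought 3 (0.055). Under quantile normalization and median centring 2 more members were called, HAK7 (-0.66 and -0.69) and HAK23 (-0.72 and -0.70). The share of all genes called lower in the interaction was 9.24% and 8.91% under these 2 scalings, against 5.13% as deposited. Of all calls 51.5%, 49.5% and 61.9% were higher under quantile normalization, median centring and spike-in centring, against 65.7% as deposited. The separate changes of HAK11 were called in some alternatives, that in Bala under quantile normalization (-0.71, adjusted p = 0.037), median centring (-0.75, adjusted p = 0.027) and without Bala drought 3 (-0.77, adjusted p = 0.033), and that in Azucena under spike-in centring (0.72, adjusted p = 0.034) and without Azucena drought 1 (0.90, adjusted p = 0.014) or Bala drought 1 or 3 (0.048). It was also called with the replicate number as a block (0.65, adjusted p = 0.045) and with the mean over probe sets (adjusted p = 0.047).

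Between cultivars under drought, HAK17 and HAK16 were called, both lower in Bala, 9.52% of the 21 members, against 25.7% of all genes (12% higher and 13.7% lower). Arrays of the cultivars did not overlap for 3 members under drought (14.3%, against 43.9% of all genes) and for 10 in flooded plots (47.6%, against 43.5%). HAK17 and HAK16 were called lower under all 3 other scalings, while 52.3%, 59.5% and 36.3% of all calls were higher under quantile normalization, median centring and spike-in centring, against 46.6% as deposited. In flooded plots 7 members were called (33.3%, against 33.4% of all genes). HAK11, HAK2 and HAK23 were higher in Bala and HAK17, HAK16, HAK27 and HAK25 lower, or 14.3% and 19% of members, against 10.7% higher and 22.7% lower of all genes. Under quantile normalization and median centring 6 members were higher and 3 lower, and under spike-in centring 3 and 5. Of all genes 20.1% were higher and 19.8% lower under quantile normalization, 23.5% and 16.1% under median centring, and 10.1% and 27.2% under spike-in centring. Of the calls over all genes 50.3%, 59.3% and 27% were higher under these scalings, against 32.1% as deposited. HAK11 was 1.92-fold higher in Bala control (log2 difference 0.94, SE 0.25, adjusted p = 0.0082) and HAK2 1.82-fold (0.86, SE 0.15, adjusted p = 0.0003). Under drought the same differences were -0.28 (95% interval -0.80 to 0.24) and 0.04 (-0.28 to 0.36). HAK27 was 2.14-fold lower in Bala control (difference -1.10, SE 0.24, adjusted p = 0.0023), against a difference of -0.06 under drought (-0.57 to 0.45).

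HAK23 (0.53, adjusted p = 0.043) and HAK25 (-0.50, adjusted p = 0.044) were close to the threshold in flooded plots. The signal of HAK25 (LOC4330614) was 444.1, 538.3 and 554.8 in Bala control, against 676.6, 721 and 793.3 in Azucena control. Under drought it was 407.8, 528.6 and 604 in Bala, against 443.2, 660 and 663.1 in Azucena. The cultivars were apart in flooded plots and overlapped under drought. The call of HAK25 was lost in 11 of 24 alternatives, under quantile normalization (-0.38, adjusted p = 0.11) and median centring (-0.29, adjusted p = 0.18) among them, and without any 1 of the 6 control arrays or Bala drought 2 (adjusted p = 0.053 to 0.14). The call of HAK23 was lost in 10 of 24, among them those without Azucena control 2 or 3, Bala control 2 or 3, Azucena drought 3 or Bala drought 1 or 2 (adjusted p = 0.052 to 0.2). HAK7, AKT1 and HAK15 were called higher in Bala control under quantile normalization (0.52, 0.58 and 0.43) and median centring (0.62, 0.63 and 0.49). HAK7 was also called higher in Bala without Bala control 1 (0.54, adjusted p = 0.018), and HAK10 lower in Bala without Azucena control 1 (-0.81, adjusted p = 0.0037), both in flooded plots. HAK18 was called lower in Bala in flooded plots under spike-in centring (-0.42, adjusted p = 0.031) and without Bala control 2 (-0.46, adjusted p = 0.048). Under drought it was called lower in Bala under quantile normalization (-0.40, adjusted p = 0.028), under spike-in centring (-0.45, adjusted p = 0.024) and without Azucena drought 1 (-0.50, adjusted p = 0.038). Sequence differences between cultivars at the probes and differences in transcript level cannot be told apart in the cultivar comparisons.

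**Figure D5:**
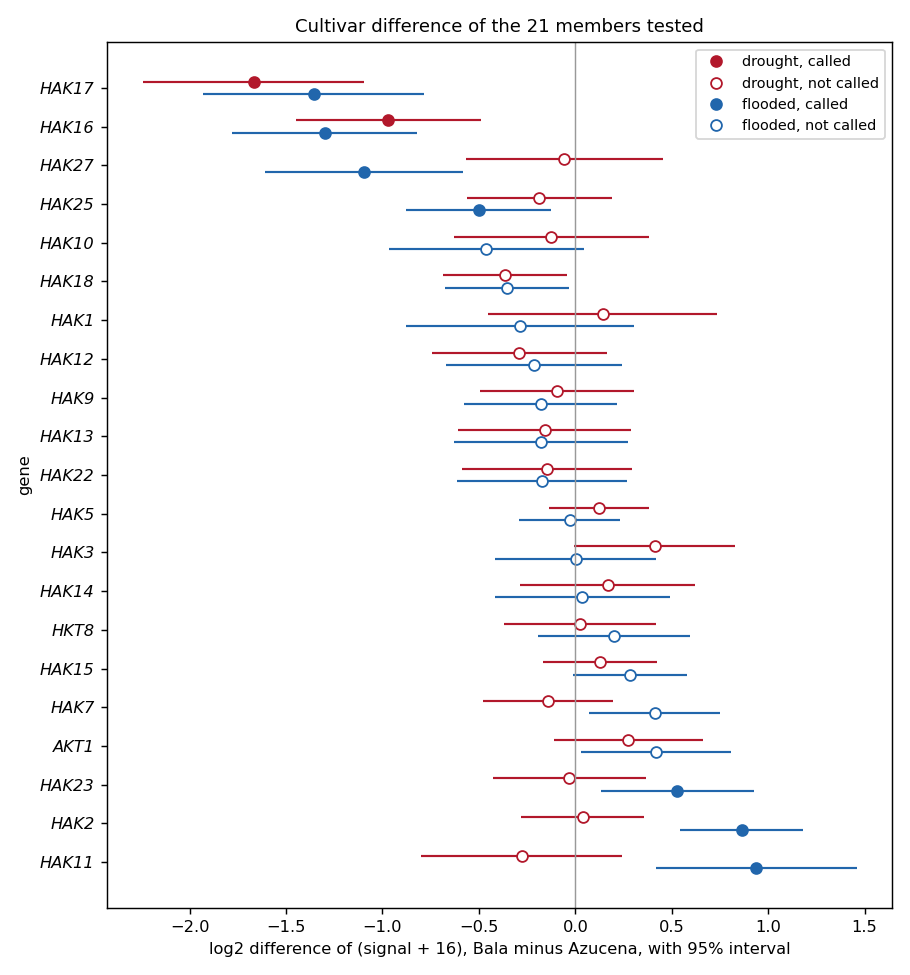
Bala minus Azucena difference of log2(signal + 16) for the 21 members tested, under drought (red) and in flooded plots (blue), with 95% intervals; filled points were called. HAK17 and HAK16 lie below 0 in both conditions, and HAK27, HAK2 and HAK11 lie away from 0 in flooded plots. Under drought HAK27 and HAK2 lie near 0, and HAK11 lies at -0.28 with an interval that spans 0.

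Other genes of potassium and sodium transport were taken from a list of symbols, of which 9 had a probe set and were tested. In Azucena 3 were called higher and 3 lower (33.3% each), against 18.2% higher and 17.4% lower of all genes. In Bala 2 were called higher and 1 lower (22.2% and 11.1%), against 27.4% and 14.1% of all genes. KCO2, also named TPKB, a potassium channel of the vacuolar membrane, had a signal of 92.2 ± 5.96 in Azucena drought and 8.23 ± 2.06 in Azucena control, and 126 ± 19.7 in Bala drought and 2.53 ± 3.11 in Bala control. All its control arrays were under background and all its drought arrays above, a rise of at least 3.89-fold in Azucena (adjusted p = 1.1e-07) and at least 8.26-fold in Bala (adjusted p = 2e-09). TPK2 rose by 0.59 in Azucena (adjusted p = 0.041), where 2 of 3 control arrays were over background, and 0.74 in Bala (adjusted p = 0.01). TPK2 and TPK3 entered the list by symbol, which is also used for thiamine pyrophosphokinases, and the tables used here do not say which they encode. GLR3.1, a glutamate receptor-like channel, changed by -0.74 (adjusted p = 0.0027) in Azucena and -0.58 in Bala (adjusted p = 0.012).

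Of the 9, TPK3 and the cation-chloride cotransporter gene CCC1 were lower and CIPK24, a kinase of the salt tolerance pathway, higher in Azucena, and none of the 3 was called in Bala. The difference between the responses was not called for TPK3 (0.46, adjusted p = 0.41) or CIPK24 (-0.31, adjusted p = 0.43). For CCC1 the responses differed, with a change of 0.27 in Bala and -0.58 in Azucena (difference 0.85, SE 0.22, adjusted p = 0.019). CIPK23, the kinase that activates AKT1, had 2 probe sets, as HAK5 did, with unlike changes. The brighter changed by -0.22 in Azucena (95% interval -0.51 to 0.08) and -0.16 in Bala (-0.46 to 0.14), and the dimmer by -1.46 (adjusted p = 1.7e-05) and -1.19 (adjusted p = 0.00012). On the dimmer set CIPK23 averaged 112 ± 10.5 in Azucena drought and 339 ± 52.6 in Azucena control, and 143 ± 26.7 in Bala drought and 349 ± 88.3 in Bala control. CBL4 and KCO1, also named TPKA, were not called in either drought response.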

How the data were processed

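Total RNA from leaves was hybridised to rice genome arrays by the standard protocol of the maker, per the labels. The authors deposited 1 signal intensity per probe set and array, on a linear scale, made with MAS5 per the submitters' processing notes, whose version and scaling target were not given in the sources used. The deposited signals of 57381 probe sets on 12 arrays were used unscaled. Control probe sets (123) were left out, probe sets above the median of their array in at least 3 arrays were kept (33476), and log2(signal + 16) was fitted with limma (version 3.58.1), using lmFit and then eBayes with trended variances, and 1 mean per group over all 12 arrays. Adjusted p-values are Benjamini-Hochberg over all probe sets tested, two-sided, with a threshold of 0.05. The script was tested on simulated data.

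The platform's probe-gene table gave 22436 probe sets 1 gene and 95 several. Symbols and synonyms came from the RefSeq gene table of assembly ASM3414082v1, which is also the source of gene neighbourhood. A gene is represented by the probe set with the highest mean log2 value. The background of an array is its highest negative control probe set, and a fold against a group at background is a lower bound, "at least N-fold", computed as the bright group's mean log2 signal against, per array of the dim group, the higher of the background and the probe set's own signal. Values on every array are given for members called in a contrast with arrays that do not overlap, and other transport genes are named when called without overlap in both drought responses. The other named transport genes were chosen after their values were seen. The members and lists were chosen with earlier results of these data known.

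Replicate numbers are in the labels, but no label ties them to a field block. The deviations of same-numbered arrays correlated between -0.11 and 0.218, over 0.1 in 2 of 18 pairs, so the numbers were not taken as pairs. Both of these pairs join Azucena drought and Bala drought (0.167 for number 1 and 0.218 for number 3). Azucena drought 1 with Bala drought 3 stood at -0.187, and Azucena drought 3 with Bala drought 1 at -0.196. Whether the drought arrays share blocks by number was not tested. Alternatives were quantile normalization, median centring, spike-in centring, 1 or 64 added to the signal, no filter and a stricter filter, no trend, only the groups of a contrast, the replicate number as a block, the mean over a gene's probe sets, and each array left out. The mean over probe sets was fitted with 1 row per gene. A gene with 1 tested probe set kept its change in that fit, and only its adjusted p could move. The dimmest tested probe set of a gene was added after the data were seen.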

Additional observations from a re-analysis of the deposited data

Results flagged for a closer look

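The drought responses of 2 members differed between the cultivars by the interaction test. For HAK11 the Bala minus Azucena difference of the responses was -1.22 on the log2 scale, with a change of -0.57 in Bala and 0.65 in Azucena, neither of them called. Its interaction call was lost in 9 of 23 alternatives. For HAK2 the difference was -0.83, with a change of -0.23 in Bala and 0.60 in Azucena, and the call was lost in 1 of 23 alternatives.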

How the results depend on the processing

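Of 30 member results called, 20 kept direction and call under all alternatives run (24 settings, and 23 for the interaction), 10 lost the call under at least 1, and 0 changed direction. The count of members with a called interaction, 2 of 21, was 4 under quantile normalization and 4 under median centring. Of 15608 genes 2975 and 2750 were called under these scalings, against 2333 as deposited. The count of members was 1 with no filter on low values, and 0 to 3 when 1 array was left out, with 0 without Azucena drought 3. Leaving out 1 array gave 7 to 12 members called in the Azucena response, 6 to 10 in the Bala response, 5 to 7 between cultivars in flooded plots and 2 to 3 under drought. The other alternatives gave 9 to 12, 6 to 13, 5 to 9 and 2 to 3. Among the alternatives, the share of all genes called is given for the scalings only. With the replicate number as a block, 11 members were called in the Azucena response, 9 in the Bala response, 3 in the interaction, 7 in flooded plots and 2 under drought. Another scaling moved the median change of all genes in the Bala response, which was 0.178 as deposited, 0.0358 under quantile normalization, -0.00142 under median centring and 0.226 under spike-in centring. HAK26, which did not pass the filter on low values, was called lower in Azucena without it (-0.39, adjusted p = 0.049), with all signals under background. The cause of these shifts was not tested. Signals near background limit HKT8, HAK14, HAK13 in drought and the dimmer HAK5 probe set.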
